A study of Homo sapiens with 6 samples.

Results

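The metallothionein family was followed through 7 Illumina HT-12 probes out of the 48803 on the array: MT2A (ILMN_1686664), MT1X (ILMN_1775170), MT1G (ILMN_1715401), MT1E (ILMN_2173611), MT1F (ILMN_1718766), MT1A (ILMN_1691156) and MT1H (ILMN_2124802). The probes were taken by identifier, and their gene names came with that list of identifiers, because the deposited table pairs probes with no names. All 7 were found, and 6 of them passed the filter on dim probes, with MT1H left out by it. The arrays measured mRNA of the H1299 cell line, derived from a non-small cell lung cancer and labelled as lung adenocarcinoma. The groups were Lin28B clones 1 and 2, stably transfected with Lin-28B, with 1 control line for them, and Ago2 clones 1 and 2, stably transfected with Ago2, with 1 control line for them, so that 6 arrays covered 4 groups. All 6 lines derive from H1299 and were harvested in exponential growth. The promoters that drive the transfected genes, and whether a control was a clone or a pool, are not given by the labels.

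Metallothioneins are small, cysteine-rich proteins that bind zinc and copper, buffer these metals in the cell and also capture cadmium and reactive oxygen species. Their genes are switched on by zinc through MTF1, a zinc-finger transcription factor that binds short metal response elements in their promoters, and they also respond to glucocorticoids and to several kinds of stress. MT2A and the MT1 genes are the inducible members found in many tissues, whereas MT3 is best known from the brain and MT4 from stratified squamous epithelium. In the RefSeq gene table of GRCh38.p14 all 7 genes lie in 1 run on chromosome 16, which holds 19 annotated genes from MT4 to MT1X, 11 of them protein coding. The 7 genes follow each other in the order MT2A, MT1E, MT1A, MT1F, MT1G, MT1H and MT1X, with other metallothionein genes and pseudogenes between them.

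The promoters of MT2A, MT1X and MT1H are shown because these 3 of the 7 genes have an entry in the promoter table, and MT1G, MT1E, MT1F and MT1A are named only. Among the genes shown, MT2A and MT1X were bright on the arrays and MT1H was below the array median on each. The windows of 300 bases run from 250 bases before to 50 bases after the RefSeq start site (GRCh38.p14, plus strand), at chr16:56608334-56608633 for MT2A, chr16:56682220-56682519 for MT1X and chr16:56669564-56669863 for MT1H. Capitals mark every match to the core of the metal response element, searched as TGCACNC and TGCGCNC on both strands.
MT2A: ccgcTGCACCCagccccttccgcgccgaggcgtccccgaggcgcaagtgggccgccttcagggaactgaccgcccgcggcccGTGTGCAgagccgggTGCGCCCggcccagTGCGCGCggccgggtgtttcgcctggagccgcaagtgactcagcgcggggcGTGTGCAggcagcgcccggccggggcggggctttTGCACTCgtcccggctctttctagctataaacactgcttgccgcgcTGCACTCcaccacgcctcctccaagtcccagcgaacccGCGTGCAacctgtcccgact
MT1X: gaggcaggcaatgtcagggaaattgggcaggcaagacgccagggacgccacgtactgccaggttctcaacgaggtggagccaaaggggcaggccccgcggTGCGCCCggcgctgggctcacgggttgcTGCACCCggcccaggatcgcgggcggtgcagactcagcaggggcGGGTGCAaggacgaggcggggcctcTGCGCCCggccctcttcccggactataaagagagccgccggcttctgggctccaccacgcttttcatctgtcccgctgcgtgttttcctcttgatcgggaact
MT1H: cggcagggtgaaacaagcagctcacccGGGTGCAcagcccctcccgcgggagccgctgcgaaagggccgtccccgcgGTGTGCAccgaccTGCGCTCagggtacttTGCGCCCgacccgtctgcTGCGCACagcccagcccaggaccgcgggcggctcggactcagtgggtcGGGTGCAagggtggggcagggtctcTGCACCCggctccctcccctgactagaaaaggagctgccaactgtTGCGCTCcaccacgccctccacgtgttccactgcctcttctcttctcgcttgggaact
The core matched 8 times in the MT2A window, 4 times in the MT1X window and 8 times in the MT1H window. Of 35116 RefSeq promoter windows of this length, 29.6% held at least 1 match, 0.601% held at least 4 and 0.0199% held at least 8. A TATAAA box was found 29 bases before the start of MT2A and 30 bases before that of MT1X, and that sequence was not in the MT1H window, against 11.5% of all windows that held it on either strand. GGGCGG, the core of the GC box, matched 2 times in MT2A, 2 times in MT1X and 1 time in MT1H, where 45% of all windows held it. The MT1H window thus carried as many metal element cores as that of MT2A, and more than that of MT1X. These matches are descriptions of the letters and were not set against any binding data.

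**Figure D1:**
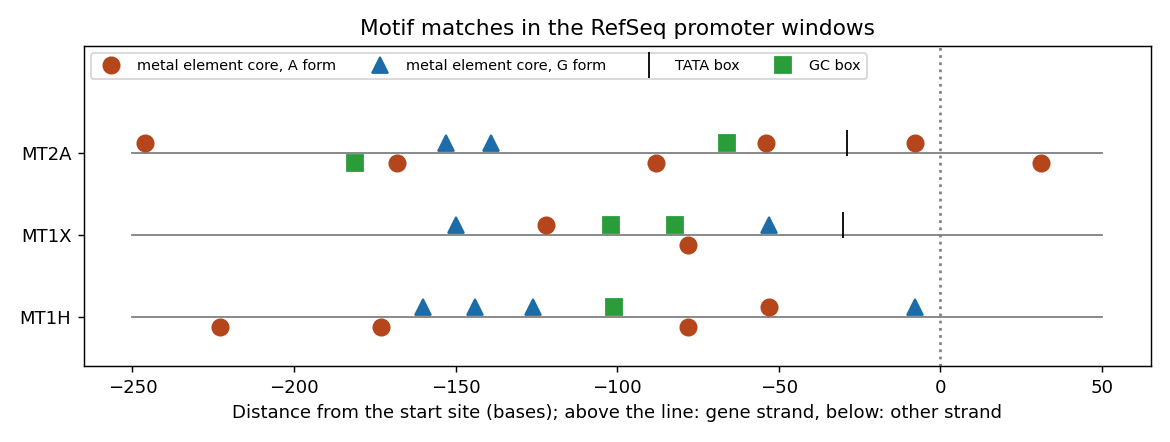
Positions of motif matches in the promoter windows of MT2A, MT1X and MT1H, in bases from the RefSeq start site, with symbols above the line for the gene's strand and below it for the other strand. MT2A and MT1H hold 8 metal element cores each and MT1X holds 4.

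Among the 11 pairs of arrays compared, the 2 control arrays differed most from each other, with an SD over kept probes of the log2 difference of 0.548 between the Lin28B control and the Ago2 control. The clones differed from their own control by 0.371 to 0.438. Lin28B clones 1 and 2 differed from the Ago2 control by 0.314 and 0.340, less than from their own control, and Ago2 clones 1 and 2 differed from the Lin28B control by 0.375 and 0.415. The Lin28B clones differed from each other by 0.214 and the Ago2 clones by 0.295. Each comparison with a control rests on 1 control array, so the log2 changes of the 6 kept probes are also given against the other control. Array medians ran from 61.7 to 67.04 intensity units. LIN28B and AGO2, markers of the cell type and other genes of metal handling such as MTF1 and the zinc transporters carry no probe names here and were not analysed. In bulk RNA, fewer cells with a transcript and less of it per cell cannot be told apart.

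The probes of MT2A, MT1A and MT1X were bright on all 6 arrays, far above the array medians. MT2A measured 3770 and 3125 in Lin28B clones 1 and 2, against 3843 in the Lin28B control, and 5721 and 3655 in Ago2 clones 1 and 2, against 1692 in the Ago2 control (deposited intensity units throughout). The Ago2 control was the lowest array and Ago2 clone 1 the highest, and the 4 arrays between them spanned 3125 to 3843. MT1A, another zinc-binding member, measured 3814 and 3405 in the Lin28B clones, against 4193 in the Lin28B control, and 6262 and 3726 in the Ago2 clones, against 2179 in the Ago2 control. Its highest and lowest arrays were those of MT2A. MT1X measured 1672 and 1515 in the Lin28B clones, against 1134 in the Lin28B control, and 3787 and 1425 in the Ago2 clones, against 901 in the Ago2 control. The Ago2 control was again lowest and Ago2 clone 1 highest, but here the Lin28B control was next to lowest. MT2A lay between the 95.9th and 98.9th percentile of an array's probes, MT1A between 96.8 and 99.0, and MT1X between 93.1 and 98.3. The highest array exceeded the lowest 3.38 times for MT2A, 2.87 times for MT1A and 4.20 times for MT1X.

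The other 4 probes stayed close to the array medians. MT1G held the highest place on its arrays, between the 68.7th and 75.6th percentile: it measured 92.9 and 87.5 in the Lin28B clones, against 104.7 in the Lin28B control, and 119.6 and 99.2 in the Ago2 clones, against 82.2 in the Ago2 control. It thus had the same highest and lowest arrays as MT2A within a much narrower range, 1.46 times from lowest to highest. MT1F was lowest in the Lin28B control (65.0), highest in the Ago2 control (82.4) and above the median on 6 of 6 arrays. MT1E ranged from 62.8 in Lin28B clone 1 to 75.6 in the Ago2 control and was above the median on 4 arrays. MT1H lay between 51.9 in Ago2 clone 1 and 61.7 in the Lin28B control, below the median on every array. No detection calls were used here, so a probe near the median may or may not carry signal. The deposited intensities still contain a background, which compresses the differences of such dim probes.

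**Figure D2:**
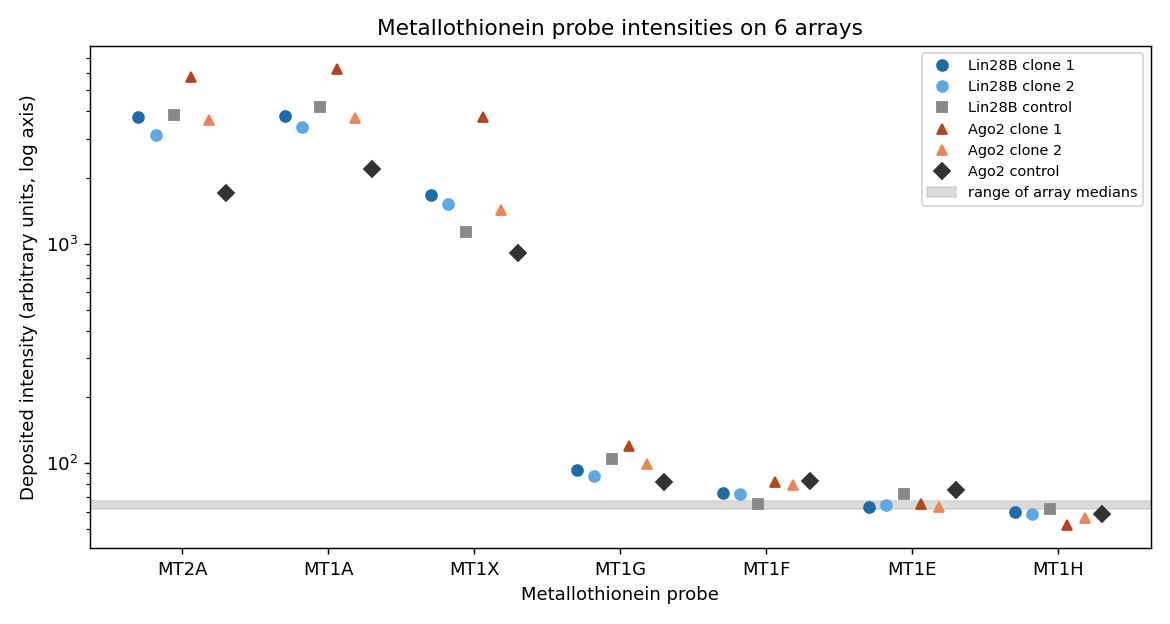
Deposited intensity (log axis) of each metallothionein probe on the 6 arrays, 1 point per array, with the range of array medians as a grey band. MT2A, MT1A and MT1X lie far above the band, with the Ago2 control lowest and Ago2 clone 1 highest, and MT1G, MT1F, MT1E and MT1H lie near it.

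The Ago2 clones had more metallothionein signal than the Ago2 control, in the bright members, but no probe passed the test. After quantile normalization of log2(intensity + 32), the scale of all log2 values and folds here unless deposited intensities are named, MT2A was 2.67-fold higher in the Ago2 clones, a log2 change of 1.42 ± 0.29 (SE), with a 95% interval of 1.57- to 4.55-fold and an adjusted p of 0.147 in limma. MT2A exceeded the Ago2 control 3.34-fold in clone 1 and 2.14-fold in clone 2. Both folds are above 2, which held for 0.638% of the 28035 kept probes and, among the 6 metallothionein probes kept, for MT2A alone. MT1A had a log2 change of 1.15 ± 0.32 (SE, adjusted p = 0.215 in limma), with 2.87-fold in clone 1 and 1.72-fold in clone 2. MT1X had a log2 change of 1.36 ± 0.58 (SE, adjusted p = 0.386 in limma), with 4.17-fold in clone 1 and 1.58-fold in clone 2. Its 95% interval ran from 0.887- to 7.42-fold because its clones lay far apart. Without Ago2 clone 2, MT1X had a log2 change of 2.06. That fit sets 1 clone against 1 control and takes its spread from the Lin28B clones. MT1G had a log2 change of 0.30 ± 0.13 (SE, adjusted p = 0.386 in limma), and its clones were 1.32- and 1.15-fold above the control.

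Both Ago2 clones lay above the Ago2 control for these 4 of the 6 kept probes, as they did for 34.9% of all kept probes. MT1E (log2 change -0.12, adjusted p = 0.680 in limma) was lower in both clones, MT1F (-0.0098, adjusted p = 0.976) had clones on either side of the control, and MT1H, fitted without the filter, had a change of 0.0066 (adjusted p = 0.988). In limma none of the 6 kept probes was called at an adjusted p of 0.05, and 0% of all kept probes were. At an unadjusted p of 0.05, 2 of the 6 passed (MT2A and MT1A), against 4239 of 28035 kept probes. The size of the changes set the bright probes near the edge of the distribution: 99.3% of kept probes changed less than MT2A in either direction, 99.2% less than MT1X and 98.6% less than MT1A. The median over the 7 probes was 0.30 on the log2 scale and that over all kept probes -0.0081.

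These values depended on the control. Against the Lin28B control, the Ago2 clones differed by 0.00044 for MT2A, -0.061 for MT1A and 0.86 for MT1X on the log2 scale. The MT2A value depended on the scaling, at 0.026 with cyclic loess and 0.28 after a shift to a common median. In deposited intensities MT2A averaged 4688 ± 1461 in the Ago2 clones (SD, n = 2), against 3843 in the Lin28B control. MT1X was above the Lin28B control in both clones, with 2.94-fold in clone 1 and 1.11-fold in clone 2. For the dim probes the differences from the Lin28B control were 0.054 for MT1G, -0.090 for MT1E and 0.23 for MT1F, none of them called in limma. The Ago2 control was the lowest of all 6 arrays for MT2A, MT1A, MT1X and MT1G, 4 of the 6 kept probes, where this held for 21% of all kept probes.

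**Figure D3:**
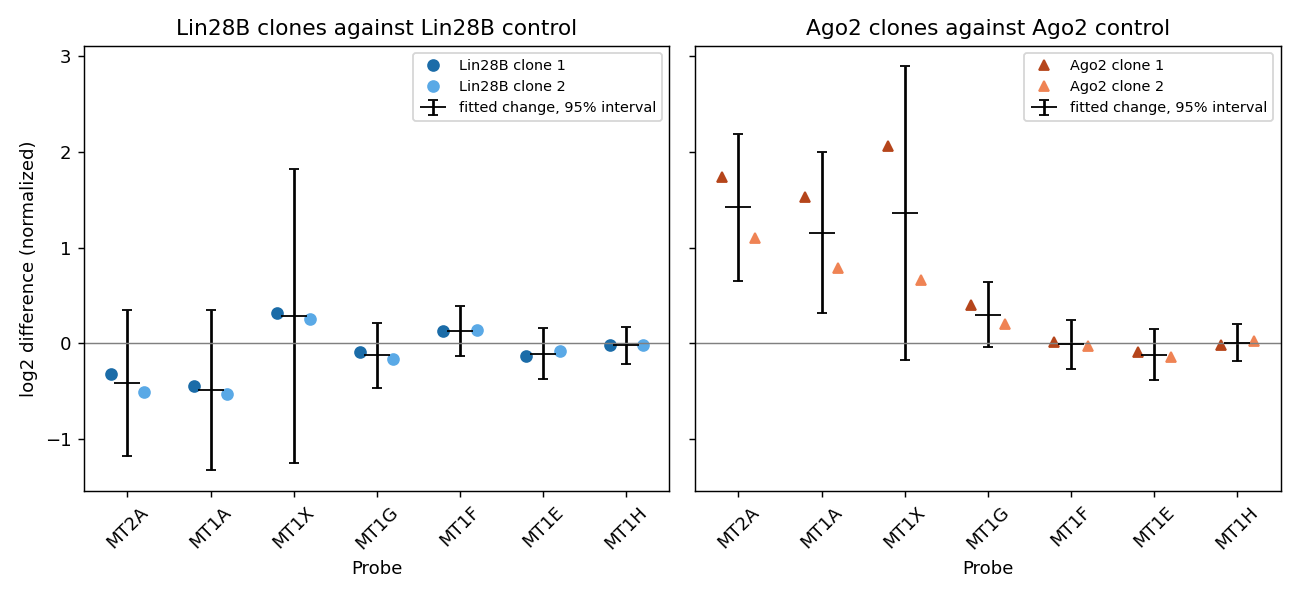
Log2 difference of each clone from its own control (points) with the limma change over both clones and its 95% interval (black), for the Lin28B clones (left) and the Ago2 clones (right). In the Ago2 panel MT2A, MT1A and MT1X lie at 1.42, 1.15 and 1.36, and in the Lin28B panel all 7 intervals include 0.

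**Figure D4:**
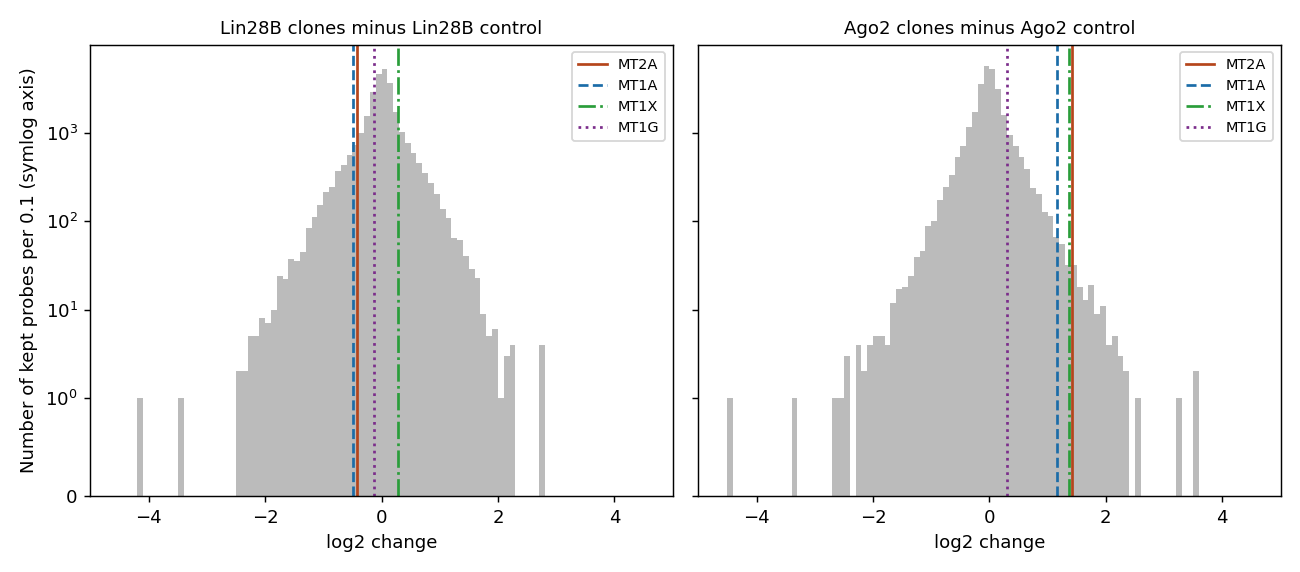
Number of kept probes per bin of log2 change (symmetric log axis) in the 2 comparisons, with lines at the changes of MT2A, MT1A, MT1X and MT1G. The bright metallothionein probes stand in the upper tail for Ago2, between 1.15 and 1.42, and within the bulk for Lin28B, between -0.49 and 0.29.

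The Ago2 clones also differed from each other in metallothionein signal. MT1X was 2.64-fold higher in Ago2 clone 1 than in Ago2 clone 2, a difference larger than that of 99.6% of kept probes between these clones. For MT1A the difference was 1.67-fold (larger than 96.8% of kept probes) and for MT2A 1.56-fold (larger than 95.4%). The Lin28B clones lay closer together, with clone 1 over clone 2 at 1.04-fold for MT1X, 1.05-fold for MT1A and 1.14-fold for MT2A. With 2 clones of each kind, this difference in spread was not tested.

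The Lin28B clones did not differ detectably from the Lin28B control in any metallothionein probe. MT2A had a log2 change of -0.41 ± 0.29 (SE, adjusted p = 0.530 in limma), with a 95% interval of 0.442- to 1.28-fold, and MT1A had -0.49 ± 0.32 (SE, adjusted p = 0.497 in limma). The size of the MT2A difference depended on the normalization. In deposited intensities the ratio to the control was 0.981 in clone 1 and 0.813 in clone 2, against 0.802 and 0.703 after quantile normalization. After a plain shift of each array to the same median the log2 changes were -0.14 for MT2A and -0.19 for MT1A. With cyclic loess they were -0.41 for MT2A and -0.47 for MT1A, near the quantile values. MT1X went the other way, at 0.29 ± 0.58 (SE, adjusted p = 0.844 in limma), with both clones above the control and 0.50 under the common median. MT1G (-0.13), MT1E (-0.11), MT1F (0.13) and MT1H (-0.018, fitted without the filter) had log2 changes no larger than 0.13 in size.

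Both Lin28B clones lay below their control for MT2A, MT1A, MT1G and MT1E, 4 of the 6 kept probes, as they did for 37.7% of all kept probes. None of the 6 was called in limma, where 1.65% of all kept probes were, and none passed at an unadjusted p of 0.05. Set against the control of the Ago2 clones, the Lin28B clones were higher by 1.01 for MT2A, 0.73 for MT1A and 0.79 for MT1X on the log2 scale (limma, adjusted p = 0.313, 0.489 and 0.695, in this order). The dim probes differed from the Ago2 control by 0.12 for MT1G, -0.13 for MT1E and -0.11 for MT1F, none of them called in limma. The direction of MT2A, MT1A, MT1G and MT1F in the Lin28B clones thus differed between the controls, and that of MT1X and MT1E did not.

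Set directly against the Ago2 clones, the Lin28B clones had lower mean values for the 6 kept probes, as for 48.4% of all kept probes. None was called in limma, as was 0% of all kept probes, and at an unadjusted p of 0.05 there were 0 of the 6, against 1952 of 28035 (6.96%). MT1X differed by -0.57 ± 0.47, MT1A by -0.42 ± 0.26 and MT2A by -0.41 ± 0.24 on the log2 scale (SE). Without Ago2 clone 1 the MT1X difference was 0.13, so its sign rests on that clone. MT1E differed by -0.018, and by 0.0089 without Ago2 clone 1 and 0.0070 without Lin28B clone 1. The Lin28B control was higher than the Ago2 control by 1.42 ± 0.33 for MT2A, 1.22 ± 0.36 for MT1A and 0.50 ± 0.67 for MT1X (SE, adjusted p = 0.0860, 0.137 and 0.714 in limma). None of the 6 was called there, against 5.97% of kept probes, and 2 passed at an unadjusted p of 0.05 (MT2A and MT1A), against 6836 of 28035 kept probes (24.4%). These 2 were called when either Ago2 clone was left out (adjusted p = 0.0153 each in limma), a fit whose residual spread comes from the Lin28B pair and which called 4000 kept probes (14.3%), against 1674 with all arrays. MT2A was also called with an intensity trend in the moderation (adjusted p = 0.0355), which called 7.99% of kept probes. The MT2A gap between the controls was 1.20 with a common median and 1.17 without normalization between arrays, where the Ago2 clones exceeded their control by 1.48 and 1.42.

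The difference between both effects, each against its own control, combines these parts. It was -1.83 ± 0.41 for MT2A (SE, adjusted p = 0.0901 in limma), -1.64 ± 0.45 for MT1A (adjusted p = 0.129), -1.07 ± 0.82 for MT1X (adjusted p = 0.536) and -0.42 ± 0.18 for MT1G (adjusted p = 0.272). None of the 6 kept probes was called, against 3.81% of all kept probes, and MT2A and MT1A were the 2 that passed at an unadjusted p of 0.05, against 6194 of 28035 kept probes (22.1%). MT2A, MT1A and MT1G, 3 of the 6, had both Lin28B clones below and both Ago2 clones above their own control, as had 17.3% of all kept probes. Metallothionein probes were called when either Ago2 clone was left out, and 0 when a Lin28B clone was. Without Ago2 clone 2, limma called MT2A (-2.15), MT1A (-2.01) and MT1X (-1.77, adjusted p = 0.0202 each), and without Ago2 clone 1 it called MT2A (-1.51, adjusted p = 0.0282) and MT1A (-1.27, adjusted p = 0.0288). Those fits called 2887 kept probes (10.3%) without Ago2 clone 2 and 2499 (8.91%) without Ago2 clone 1, against 1067 with all arrays. With an intensity trend MT2A alone was called (adjusted p = 0.0370), where 5.55% of kept probes were.

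Ordered by group mean on the log2 scale, MT2A was at 12.12 ± 0.45 in the Ago2 clones (SD, n = 2), 12.11 in the Lin28B control, 11.70 ± 0.13 in the Lin28B clones (SD, n = 2) and 10.70 in the Ago2 control. The Lin28B control and the mean of the Lin28B clones lie within 1 SD of the Ago2 clone mean, and the Ago2 control lies below that range. This SD comes from 2 clones, so it cannot show whether groups agree or differ. The mean of the Lin28B clones was below both Ago2 clones, which were at 12.44 and 11.79. The single clones overlapped, with Lin28B clone 1 at 11.80 and Lin28B clone 2 at 11.61. MT1X was at 11.20 ± 0.99 in the Ago2 clones (SD, n = 2), 10.63 ± 0.039 in the Lin28B clones (SD, n = 2), 10.34 in the Lin28B control and 9.84, the lowest, in the control of the Ago2 clones. Here too the mean of the Lin28B clones and the Lin28B control lie within 1 SD of the Ago2 clone mean, with the same limit, and the Ago2 control does not. An exact permutation of 2 clones against 1 control has 3 arrangements and cannot give a p below 0.333, so none is reported.

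Of the bright members, MT1A stayed close to MT2A across the arrays and MT1X less so. The log2 difference between the MT1A and MT2A probes stayed between 0.014 and 0.35 on all 6 arrays, a range of 0.33, and of 28034 other kept probes only 1 kept a tighter distance to MT2A. Metallothionein transcripts are closely similar in sequence and the probe sequences were not used here, so the signal of the MT1A probe cannot be told apart from binding of another family member's transcript. For MT1X the range was 1.23, at rank 1446 of 28034. Its log2 distance below MT2A was 0.54 in Ago2 clone 1 and 1.30 in Ago2 clone 2, against 0.86 in the Ago2 control, and 1.14 and 1.01 in Lin28B clones 1 and 2, against 1.77 in the Lin28B control. MT1X was thus closer to MT2A in both Lin28B clones than in their control, while the Ago2 clones lay on either side of theirs.

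Pearson's r over the 6 arrays, which share an origin and in part a transfection, was 0.986 between MT2A and MT1A, 0.931 between MT2A and MT1G and 0.794 between MT2A and MT1X. Spearman's rho of MT1X was 0.60 with MT2A and 0.49 with MT1A. For MT2A with MT1F, Pearson's r was -0.276 and Spearman's rho -0.086. For MT2A with MT1E, they were -0.400 and -0.143. These values are descriptions, and the Ago2 control and Ago2 clone 1 are the arrays at either end. The dim MT1G probe thus followed MT2A, and the dim MT1F and MT1E probes did not. As for MT1A, the signal of the MT1G probe cannot be told apart from binding of another family member's transcript.

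**Figure D5:**
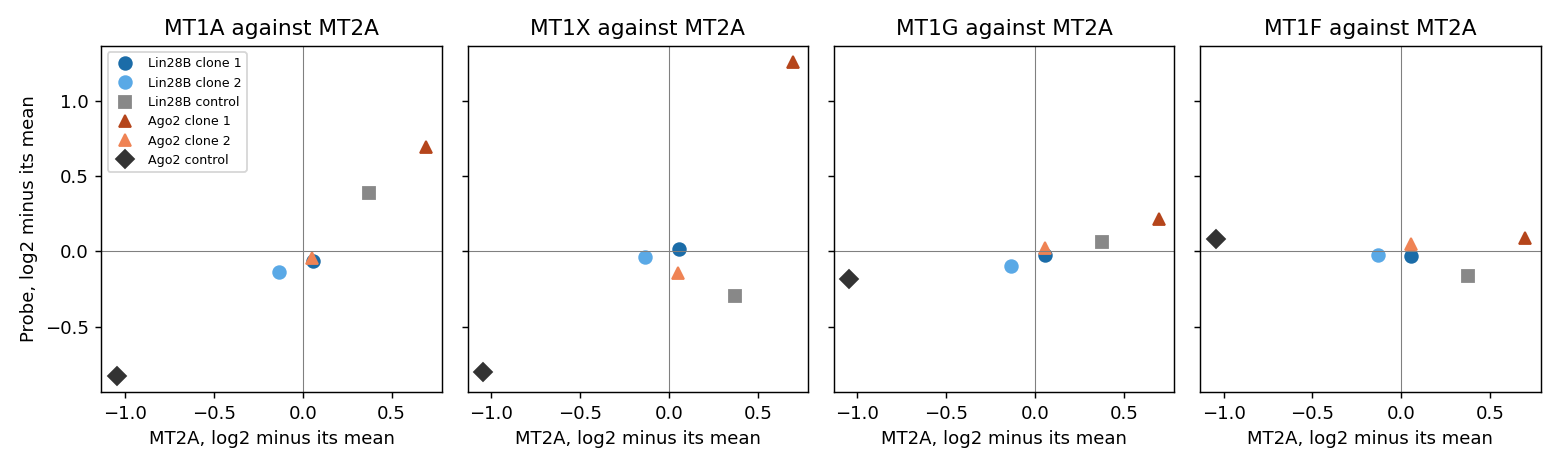
Normalized log2 values of MT1A, MT1X, MT1G and MT1F against MT2A, each minus its mean over the 6 arrays, 1 point per array. MT1A lies along the diagonal with MT2A, MT1G follows it over a narrower range, MT1X shows the Lin28B control displaced downward, and MT1F does not follow.

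The mean profile of the 6 kept probes, each centred on its mean, was highest in Ago2 clone 1 (0.49) and lowest in the Ago2 control (-0.45), with the other 4 arrays between -0.075 and 0.071. Outside the family, the kept probes most like this profile were ILMN_2094351 (r = 0.993 over 6 arrays) and ILMN_2136089 (r = 0.991), which carry no gene name here. ILMN_2136089 measured 201 and 189 in the Lin28B clones, against 206 in the Lin28B control, and 283 and 190 in the Ago2 clones, against 138 in the Ago2 control. It had the same highest and lowest arrays as MT2A. ILMN_2094351 ranged from 60.6 in the Ago2 control to 69.3 in Ago2 clone 1, close to the array medians. By the same measure MT1G stood at rank 27 of 28035 kept probes, MT1A at rank 30, MT2A at rank 52 and MT1X at rank 95, although each of them is part of the profile. MT1F (r = -0.0094) stood at rank 13501 and MT1E (r = -0.34) at rank 19475.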

How the data were processed

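Probe signals from 6 Illumina HT-12 BeadChips were analysed; per the labels' protocols, Trizol RNA was labelled with an Ambion MessageAmp kit. The deposited table holds linear intensities, 1 per probe and array, made by the authors; scanner software, background handling and normalization: not given in the sources used here. Array medians differ, so the deposited intensities are not quantile normalized. Precision is limited by the number of arrays.

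Intensities were floored at 1, 32 was added, and log2 values were quantile normalized. A probe was kept if it exceeded the array median on 2 or more arrays (28035 of 48803, 57.4%); MT1H, which failed, was fitted without the filter. All 6 arrays entered 1 model with 4 groups (limma 3.58.1, R 4.3.3; 2 residual and 2.54 prior degrees of freedom). Spread comes only from the clone pairs, and a control is assumed to vary like them. Nothing says that clones were cultured separately in time, so p-values cover only the spread between these arrays. P-values were adjusted by Benjamini-Hochberg over all kept probes (threshold 0.05), and 95% intervals come from the fit. On simulated data for the Ago2 comparison, the fit called 14.7% of log2 changes of 1 and 82.7% of those of 2. Changes near 1 were thus mostly missed in the simulation. In the measured Ago2 comparison 0 kept probes were called at any size of change, with a smallest adjusted p of 0.0999 in limma. The simulated shares therefore do not say how often a change of 2 would be called on these arrays.

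Members and gene lists were chosen with earlier results of these data known. The naming rule covers the 7 probes, listed metal and stress genes, and the probes most alike in profile; without probe names the 8 gene lists were not analysed here, and at most 2 other probes are named by identifier. Offset, normalization, filter, moderation, clones, controls and a block by clone number were varied. Promoters are RefSeq's (GRCh38.p14). The labels do not say whether the clone numbers pair the Lin28B and Ago2 clones, and the main fit did not pair them. Clone 1 minus clone 2 correlated at -0.204 over kept probes, which cannot settle the question.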

Additional observations from a re-analysis of the deposited data

Results flagged for a closer look

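MT2A, MT1A and MT1G had both Lin28B clones below the Lin28B control and both Ago2 clones above the Ago2 control, a pattern that 17.3% of all kept probes share. The Lin28B effect minus the Ago2 effect was -1.83 for MT2A, -1.64 for MT1A and -0.42 for MT1G on the log2 scale. The test of this difference in limma gave adjusted p = 0.0901, 0.129 and 0.272, so none of the 3 passed it. The gap between the 2 control arrays enters each value: the Lin28B control exceeded the Ago2 control by 1.42 for MT2A, 1.22 for MT1A and 0.25 for MT1G, and the part of the control arrays in the pattern cannot be told apart from that of the transfections.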

How the results depend on the processing

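For the 6 kept probes in 5 comparisons, 469 changes were computed under alternatives: 438 kept their direction and stayed short of the threshold, 12 passed it in the alternative alone and 19 changed sign. The number of metallothionein probes called was 0 in every comparison, and alternatives gave more in these cases only: with an intensity trend 1 for the gap between the controls and 1 for the difference of effects (both MT2A). Leaving out a clone gave 0 to 1 for Ago2 (1 without Ago2 clone 2, MT1X), 0 to 2 between the controls (2 without either Ago2 clone, MT2A and MT1A) and 0 to 3 for the difference of effects (3 without Ago2 clone 2, 2 without Ago2 clone 1). Such fits have 1 residual degree of freedom, from the clone pair that remains, and leave 1 clone in the other group. Their calls therefore carry little weight. In the Ago2 comparison, over 16 alternatives other than the exchanged control, the change ran from 0.71 to 1.74 for MT2A (adjusted p from 0.0509 to 1.00), from 0.55 to 1.52 for MT1A (0.0509 to 1.00) and from 0.66 to 2.06 for MT1X (0.0490 to 1.00). The lowest MT2A and MT1A values came from pooled controls.

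Exchanged controls turned MT1A to -0.061 and MT1F to 0.23 for Ago2, and MT2A to 1.01, MT1A to 0.73, MT1F to -0.11 and MT1G to 0.12 for Lin28B. Pooled controls turned MT2A to 0.30 and MT1A to 0.12 for Lin28B, and MT1F to 0.11 for Ago2. The sign changes of MT1F and MT1E under other settings lie near 0: MT1F for Ago2 was 0.044 with a common median, 0.019 with cyclic loess, and from -0.030 to 0.010 when a clone was left out; the MT1E difference of effects was -0.0061 with a common median, -0.011 with cyclic loess and from -0.017 to 0.036 when a clone was left out; and for MT1E the Lin28B clones minus the Ago2 clones ran from -0.045 to 0.0089 when a clone was left out. For MT1X the same difference, -0.57 with all arrays, ran from -1.27 to 0.13 and was positive without Ago2 clone 1 only. Signals of MT1E, MT1F and MT1H near the array medians limit what can be read from them. The cause of these changes was not tested.

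With the clone number as a replicate block, 0 metallothionein probes were called in all 5 comparisons, and over all kept probes the calls were 0 for Lin28B against 463 without the block, 0 for the difference of effects against 1067, and 0 between the controls against 1674. The crossed pairing, chosen after seeing the data, gave 865 calls for Lin28B, 1743 for the difference of effects and again 0 metallothionein probes. Calls over all kept probes ranged from 0 to 2357 for Lin28B, from 0 to 161 for Ago2, from 0 to 2 between the clones, from 0 to 2887 for the difference of effects and from 0 to 4000 between the controls.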
